A study of Mus musculus with 8 samples.

Results

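Mature 3T3-L1 adipocytes treated with crocidolite were compared with adipocytes treated with physiological saline. Both crocidolite arrays and both saline arrays entered the comparison, chosen by their titles, so that 4 of the 8 arrays in the series were used for it. Of the 55681 probes that are not controls, 33044 lay well above background on both arrays of at least 1 group, and these stood for 22899 genes, 15297 of them with a symbol. The series asks how different types of asbestos alter gene expression in fat cells, and its other groups received chrysotile or amosite. 3T3-L1 is an established mouse preadipocyte line whose cells turn into lipid-filled adipocytes in culture. It is 1 line, grown without the other cells of fat tissue. Each fibre was given at 10 mg/cm2, a unit that could not be checked, and all cells were harvested after 72 h. Each group has a pair of arrays, and nothing in the labels ties them to separate cultures. The p-values therefore cover only the spread between arrays of the same group, pooled over all 8 arrays, and that spread may be technical.

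Crocidolite is an amphibole asbestos with straight, iron-rich fibres. Adipocytes are secretory cells as well as fat stores. Under inflammatory signals they are known to release acute phase proteins such as haptoglobin, serum amyloid A3 and lipocalin 2, together with chemokines that attract monocytes and neutrophils. Transcription factors of the NF-kB, C/EBP and AP-1 families are known to act at many of these genes, and inflammatory signals are known to lower genes of fat synthesis.

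The promoters of 4 genes of the crocidolite comparison are shown because these genes had some of its largest differences and their sequences hold letters of those 3 families. Each is the 250 bases before the RefSeq gene start on GRCm38.p6, written 5′ to 3′ on the gene's strand. Saa3 (chr7:46715677-46715926, minus strand) encodes an acute phase protein made in fat. Sbsn (chr7:30751221-30751470, plus strand) encodes suprabasin, a secreted protein best known from skin. Serpina3g (chr12:104235897-104236146, plus strand) encodes a protease inhibitor, and Ccl9 (chr11:83578637-83578886, minus strand) a chemokine. Capitals mark matches on either strand to the C/EBP letters TTGCNNAA, the AP-1 letters TGANTCA or the NF-kB consensus.
Saa3: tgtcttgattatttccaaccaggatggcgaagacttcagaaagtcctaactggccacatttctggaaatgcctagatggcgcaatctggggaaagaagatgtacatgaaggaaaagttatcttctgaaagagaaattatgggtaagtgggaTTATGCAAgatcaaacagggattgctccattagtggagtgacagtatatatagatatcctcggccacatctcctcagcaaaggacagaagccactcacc
Sbsn: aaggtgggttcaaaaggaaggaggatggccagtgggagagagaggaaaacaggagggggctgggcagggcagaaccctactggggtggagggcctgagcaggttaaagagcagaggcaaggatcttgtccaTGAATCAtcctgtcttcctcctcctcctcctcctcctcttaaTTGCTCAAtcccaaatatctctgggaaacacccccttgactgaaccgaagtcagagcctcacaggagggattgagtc
Serpina3g: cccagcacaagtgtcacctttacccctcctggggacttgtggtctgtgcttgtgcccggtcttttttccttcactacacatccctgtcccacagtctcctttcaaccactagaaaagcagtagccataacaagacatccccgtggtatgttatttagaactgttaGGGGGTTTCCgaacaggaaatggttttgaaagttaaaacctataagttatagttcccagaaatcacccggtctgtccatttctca
Ccl9: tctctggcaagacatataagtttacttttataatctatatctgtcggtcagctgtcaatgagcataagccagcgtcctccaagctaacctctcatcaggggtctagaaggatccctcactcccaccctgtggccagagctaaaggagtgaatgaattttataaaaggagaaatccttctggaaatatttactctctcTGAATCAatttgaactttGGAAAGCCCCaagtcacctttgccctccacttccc
The C/EBP match of Saa3 begins 99 bases before the start. In Sbsn the C/EBP match begins 77 bases and the AP-1 match 119 bases before it. The NF-kB match of Serpina3g begins 85 bases before the start, and Ccl9 has an NF-kB match at 35 and an AP-1 match at 53 bases. The marked matches do not overlap. Of the 143 named genes that were at least 2-fold higher with crocidolite (the rule is given with the counts), 106 had a promoter in the RefSeq table, and 13 of these (12.3%) held the NF-kB letters, 21 (19.8%) the C/EBP letters and 16 (15.1%) the AP-1 letters. Among the 11990 tested genes with a promoter in the table the shares were 4.25%, 7.97% and 4.82%, and among all 27025 genes with one 3.75%, 9.55% and 6.87%. These shares describe letters only, and binding was not measured. Promoters of the 2-fold lower genes were not counted.

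All values are log2 processed intensity relative to the 75th percentile of the array, so that 0 is that percentile, and differences are crocidolite minus saline on the log2 scale with their standard error (SE, n = 2 arrays per group, limma, spread pooled over all 8 arrays). The 75th percentile ran from 340 to 453 intensity units over the 8 arrays, and 56.2% to 62.8% of probes were well above background. Saline replicate 2 had the lowest value of both. Log2 differences between the replicates had an SD over genes of 0.543 in the saline group and 0.397 in the crocidolite group, with 0.434 in the chrysotile and 0.374 in the amosite group. All arrays lay on 1 slide, where the position of an array followed its group and its replicate number, so that position and group cannot be told apart. With 2 arrays per group the number of arrays limits every value. The adipocyte markers were present in both groups. Adipoq, encoding adiponectin, stood at 9.19 and 9.65 with saline and at 9.15 and 9.29 with crocidolite, and Fabp4, the fatty acid carrier of fat cells, at 9.34 and 9.78 with saline and at 9.50 and 9.56 with crocidolite. Of the 25 adipocyte markers 24 were measured, and their summed level was 4540 and 5980 times the 75th percentile with saline and 4500 and 4920 times with crocidolite.

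The largest positive differences of crocidolite-treated adipocytes from saline-treated cells were in Saa3, Hp, Dmkn and Sbsn, and most measured acute phase, complement and chemokine genes had a positive difference. The differences at the other end were smaller among well-measured genes and included Clec3b, Cpz and the fat synthesis regulator Thrsp. No gene passed a Benjamini-Hochberg adjusted p of 0.05 in limma, and the smallest adjusted p was 0.146. At an unadjusted p under 0.05 there were 658 genes with higher (2.87% of genes) and 1017 with lower signal (4.44%), 1675 in all (7.31%), and with the replicate number as a block 1287 and 1776, again with 0 genes after adjustment. A descriptive rule was therefore used: at least 2-fold between the group means, with both arrays of 1 group above both of the other. It held for 181 genes higher with crocidolite (0.79% of those tested) and 214 lower (0.935%), together 1.72%. At any fold 34.5% of genes did not overlap between the groups, 14.6% higher and 19.9% lower.

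Genes on the lower side were dim. Of the 181 higher genes 120 were above background on all 4 arrays, but of the 214 lower genes only 62 were, and 114 were not well above background on either crocidolite array. The split of higher and lower genes moved with the processing. It was 141 and 11 with normexp background correction, 278 and 104 with quantile normalization, 320 and 126 with centring on the median, and 119 and 58 among probes bright on all 8 arrays. Centring on the median shifted the median difference of all genes from -0.02 to 0.16. When any 1 of the 4 arrays was left out, 79 of the 181 and 59 of the 214 kept a 2-fold difference in the same direction. Without saline replicate 2, 47 genes passed the adjusted p (40 higher and 7 lower), and without either chrysotile replicate 4 did, among them Sbsn and Dmkn.

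**Figure D1:**
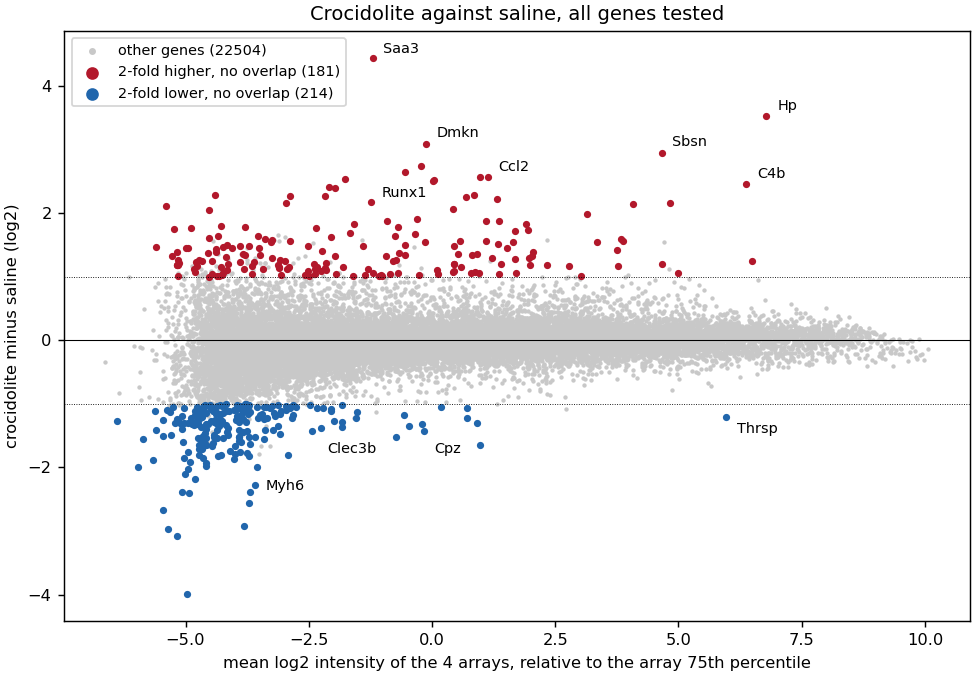
Crocidolite minus saline (log2) against the mean log2 intensity of the 4 arrays, relative to the array 75th percentile; each point is 1 of 22899 genes. Red points are the 181 genes at least 2-fold higher and blue points the 214 at least 2-fold lower without overlap, and most blue points lie at low intensity, where Myh6 is, while Saa3 (4.44), Hp (3.53) and C4b (2.46) lie at the upper edge.

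Acute phase and complement genes were mostly higher with crocidolite. All 25 listed genes were measured, 22 had a positive difference, and 9 were at least 2-fold higher without overlap and 0 lower. Of all genes tested 46.3% had a positive difference, 0.79% were 2-fold higher and 0.935% 2-fold lower without overlap. These shares are the background of every list below. The median difference of the acute phase and complement list was 0.78, against -0.02 over all genes. It was 0.67 between the arrays numbered 1 and 0.65 between those numbered 2. Saa3 stood at -3.97 and -2.87 on the saline arrays and at 1.00 and 1.03 on the crocidolite arrays, a difference of 4.44 ± 1.01 (21.7-fold, unadjusted p = 0.00423, adjusted p = 0.537). Its crocidolite arrays lay close together, far above both saline arrays, and its promoter is the first of those printed. With normexp the difference was 2.83. Hp, encoding haptoglobin, which binds free haemoglobin, stood at 4.15 and 5.89 with saline and at 8.14 and 8.96 with crocidolite (3.53 ± 1.30, 11.5-fold, unadjusted p = 0.0341). Replicate 2 was the higher array of both groups, and the groups did not overlap. C4b, the complement protein of the classical and lectin pathways, stood at 4.83 and 5.45 against 7.40 and 7.80 (2.46 ± 0.52, 5.50-fold, unadjusted p = 0.00298).

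The protease inhibitors of the Serpina3 cluster did not all differ in 1 direction. Serpina3g stood at -2.10 and -1.63 with saline and at 0.71 and 0.85 with crocidolite (2.64 ± 0.57) and Serpina3f at -3.10 and -3.49 against -0.72 and -1.06 (2.41 ± 0.48). Serpina3n differed by 1.67 ± 0.72 and Serpina3m by 0.78 ± 0.24, whereas Serpina3h differed by -0.36 ± 0.12. A second Serpina3f probe differed by 0.56. These genes are close copies of each other, so the probes may share signal. Lcn2, a carrier of iron-binding siderophores, stood at -1.09 and -1.35 with saline and at 1.42 and 1.17 with crocidolite (2.52 ± 0.63). Both of its crocidolite arrays lay more than 2 log2 units above both saline arrays. Cfb, complement factor B of the alternative pathway, differed by 1.55 ± 0.69, and C3, the shared component of all complement pathways, by 0.50 ± 0.29 from a high level of 7.52 and 7.98. Saa2 was not well above background on either saline array and was at least 2.20-fold higher with crocidolite. Saa1 differed by 0.67 ± 0.37, and Saa1 and Saa2 are near-identical in sequence. Itih4, a plasma protein of the acute phase, differed by 0.92 ± 0.20, from 4.59 and 4.30 to 5.26 and 5.46. Orm2, encoding an acute phase glycoprotein, stood at 2.01 and 4.54 with saline and at 3.83 and 4.27 with crocidolite, so its groups overlapped.

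Among chemokines and cytokines 20 of 34 listed genes were measured, 16 of them with a positive difference. The rule of 2-fold without overlap held for 7 genes higher and 0 lower (over all genes 0.79% and 0.935%). The median was 0.81 (1.07 between the arrays numbered 1 and 0.63 between those numbered 2). The 7 were 4 CC chemokines and 3 CXC chemokines. Ccl2, which attracts monocytes, stood at -0.66 and 0.35 with saline and at 2.33 and 2.51 with crocidolite (2.57 ± 0.57, 5.95-fold, unadjusted p = 0.0036). Ccl9 stood at -0.77 and 0.15 against 1.92 and 2.61 (2.57 ± 0.76), and Ccl8 at -0.08 and 0.49 against 2.37 and 2.46 (2.22 ± 0.42). For these 3 genes each crocidolite array exceeded each saline array by more than 1 log2 unit. Ccl7 differed by 1.29 ± 0.25. The neutrophil attractants Cxcl5 and Cxcl1 differed by 1.27 ± 0.31 and 1.24 ± 0.41, and Cxcl12, which retains blood stem cells in marrow, by 1.24 ± 0.40 (0.46 at a second probe). Ackr3, a scavenging receptor for Cxcl12, stood at -1.42 and -1.06 with saline and at 0.92 and 1.61 with crocidolite (2.50 ± 0.66). Cx3cl1 and the macrophage growth factor Csf1 differed by 0.81 ± 0.19 and 0.68 ± 0.17, and Il33, an alarm cytokine, by 0.94 ± 0.31. Il6 overlapped between the groups (-1.95 and -0.63 against -0.78 and -0.47). Tnf, Il1a and Il1b were among the 14 listed genes that were not well above background on both arrays of any group. Cxcl2 was well above background on 1 saline array and on 0 crocidolite arrays, so no difference is given.

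**Figure D2:**
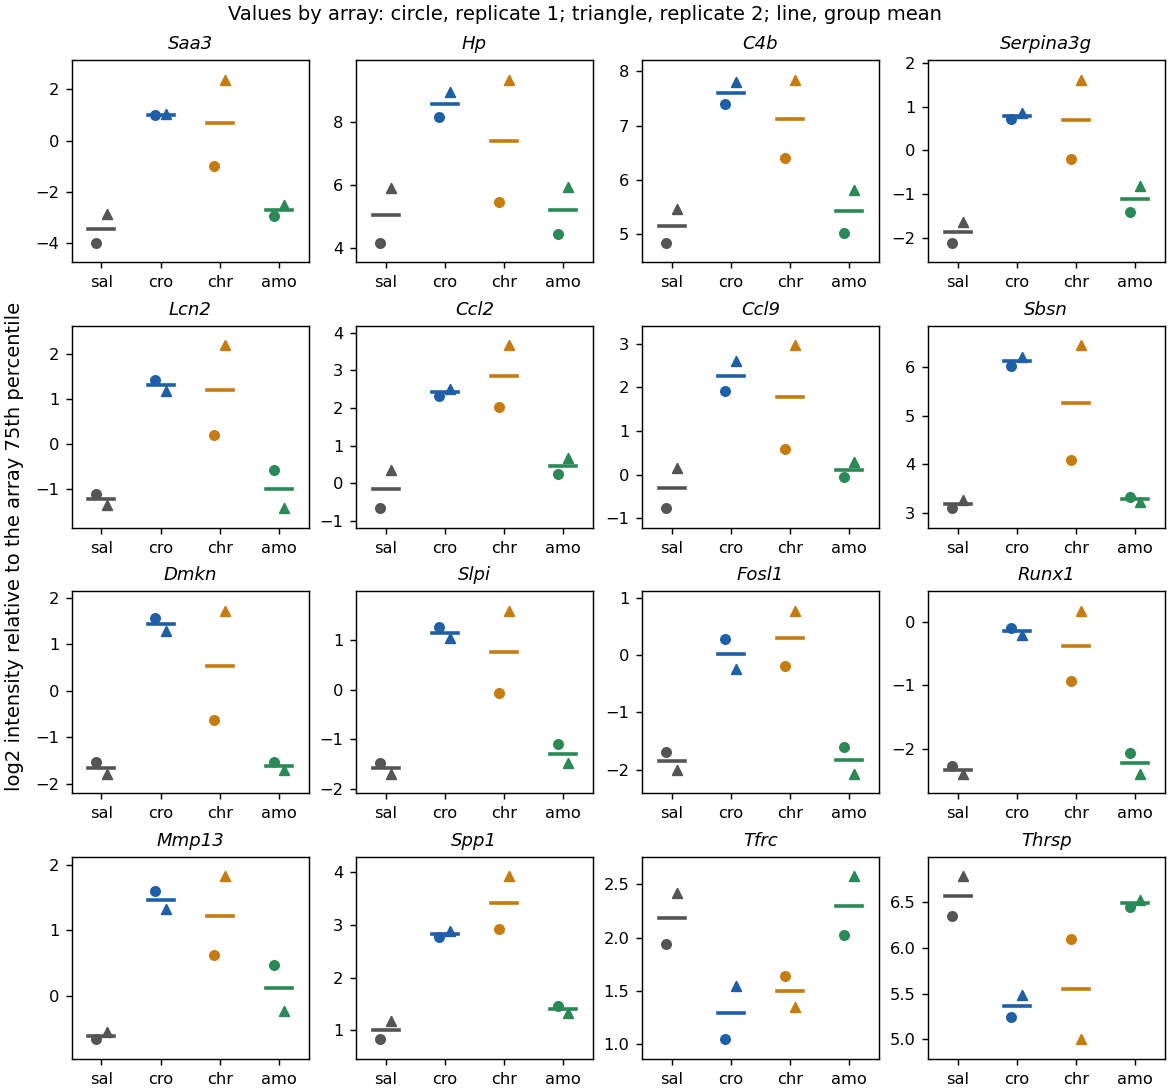
Log2 intensity relative to the array 75th percentile of 16 genes on each array, with saline (sal), crocidolite (cro), chrysotile (chr) and amosite (amo) on the x axis; circles are replicate 1, triangles replicate 2 and lines group means. Saa3 stood at 1.00 and 1.03 on the crocidolite arrays against -3.97 and -2.87 with saline, while Thrsp and Tfrc lay lower with crocidolite.

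The list of NF-kB and Toll-like signalling genes had a smaller median difference than the acute phase and chemokine lists. Of the 25 NF-kB and Toll-like genes measured 22 had a positive difference, with a median of 0.27, and 3 were 2-fold without overlap, of which Ptgs2 was below background on both arrays of both groups. The other 2 were Bcl3, a partner of NF-kB subunits, at 1.60 and 1.12 against 2.60 and 2.77 (1.33 ± 0.38), and Tlr2, a receptor for microbial lipoproteins, at 0.19 and -0.17 against 1.38 and 0.96 (1.16 ± 0.28). The subunits themselves lay near the level of saline, with Nfkb1 at 0.16 ± 0.13 and Rela at 0.09 ± 0.14, and Relb at 0.40 ± 0.17 (-0.04 at the lowest of its 3 probes). Vcam1, an adhesion protein for leukocytes, differed by 0.85 ± 0.14, from 3.42 and 3.45 to 4.39 and 4.17. Cd14 and Tlr4, which together sense endotoxin, differed by 0.96 ± 0.30 and 0.57 ± 0.18. Nos2, the inducible nitric oxide synthase, was lower with crocidolite (-0.51 ± 0.17). Socs3, an inhibitor of cytokine receptors, stood at 1.55 and 1.18 with saline and at 2.67 and 2.83 with crocidolite (1.39 ± 0.49). In the inflammasome list 12 of 15 genes were measured, and 2 were 2-fold higher without overlap: Casp4, at 1.37 and 1.43 against 2.58 and 2.58 (1.18 ± 0.23), and the Il33 receptor Il1rl1 (1.21 ± 0.42). Nlrp3 (-0.17 ± 0.34) and Casp1 (0.17 ± 0.38) overlapped between the groups.

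Interferon response genes differed between the saline arrays. All 36 were measured, 34 had a positive difference and the median was 0.29, but 0 were 2-fold without overlap. The median was 0.70 between the arrays numbered 1 and -0.09 between those numbered 2, and without saline replicate 1 it was -0.13. Isg15 stood at 3.57 and 5.11 with saline and at 4.91 and 5.05 with crocidolite. Saline replicate 1 lay below the other 3 arrays. Oas3, an enzyme that senses double-stranded RNA, was not well above background on either saline array and was at least 1.89-fold higher with crocidolite, although its difference was 0.09 with normexp.

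Transcription factors with large differences were few. Of 24 AP-1 and immediate early genes measured, 17 had a positive difference and 1 was 2-fold without overlap. It was Fosl1, the AP-1 subunit Fra-1, at -1.69 and -2.01 with saline and at 0.29 and -0.24 with crocidolite (1.87 ± 0.37, 3.67-fold, unadjusted p = 0.00197). Its partner Jun differed by 0.07 ± 0.14, and Fos by 0.87 ± 0.53. Runx1, a regulator of blood and mesenchymal cell fate, stood at -2.26 and -2.39 with saline and at -0.09 and -0.21 with crocidolite (2.17 ± 0.34, unadjusted p = 0.00064, adjusted p = 0.489). It was higher on both crocidolite arrays by about the same amount. Snai1, a repressor of epithelial genes, differed by 1.05 ± 0.34. In the list of RUNX and mesenchymal genes, which holds both, 10 of 24 were positive and 3 were 2-fold higher without overlap. Its median of -0.05 became 0.14 with centring on the median.

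Genes of matrix breakdown and of contractile, TGF-beta-responsive cells were mostly higher with crocidolite. Of 21 matrix protease and plasminogen genes measured 18 had a positive difference, with a median of 0.47 that was 0.09 with normexp. The rule of 2-fold without overlap held for 4 higher genes, against 0.79% of all genes. Of the 21 genes, 18 were above background on all 4 arrays and 2 were not above it on either saline array. Over the 17 genes with a probe bright on all 8 arrays the median was 0.18. Mmp13, a collagenase, stood at -0.66 and -0.55 with saline and at 1.60 and 1.32 with crocidolite (2.07 ± 0.42). Mmp3 stood at 0.58 and 0.06 against 2.17 and 1.60 (1.56 ± 0.39). In both genes the arrays of a group lay closer together than the groups did. Plau, encoding the activator urokinase, was not well above background with saline and at least 2.16-fold higher with crocidolite, a difference of 1.64 that was 0.26 with normexp. The inhibitor Timp1 differed by 0.99 ± 0.28, whereas the gelatinase Mmp2 (0.05 ± 0.27) and the membrane protease Mmp14 (0.05 ± 0.14) overlapped between the groups. Spp1, encoding osteopontin, stood at 0.83 and 1.18 against 2.77 and 2.88 (1.82 ± 0.32), and Col12a1, a collagen of fibril surfaces, at -1.88 and -1.24 against 0.05 and 0.10 (1.64 ± 0.33). Postn, encoding periostin, was lower with crocidolite (5.25 and 5.37 against 4.84 and 4.56). The whole list of collagens and matrix genes had a median of 0.11 over 27 measured.

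Of 27 TGF-beta, SRF and YAP target genes 26 had a positive difference (median 0.28), and 5 were 2-fold higher without overlap. Over all genes the shares were 46.3% and 0.79%. Ccn1, a matrix signalling protein, stood at -0.38 and 0.09 against 1.14 and 1.28 (1.35 ± 0.38). Its relative Ccn2 (1.77 ± 0.92) and Ankrd1 (1.45 ± 0.71) were dim and their replicates spread widely. Acta2, the smooth muscle actin of myofibroblasts, stood at 3.74 and 2.64 with saline and at 4.79 and 3.93 with crocidolite (1.17 ± 0.54). Here replicate 1 was the higher array in both groups. Among 24 growth factors measured, 1 was 2-fold without overlap, the EGF receptor ligand Ereg, at -4.05 and -4.28 against -2.61 and -3.03 (1.34 ± 0.20, unadjusted p = 0.000438). Ereg was dim, and its saline values lay close to the lowest probe values called above background on those arrays (-4.80 and -4.47). Inhba, a subunit of activins, differed by 0.94 ± 0.24. In the adipokine list Grem1, which blocks bone morphogenetic proteins, differed by 1.72 ± 0.66.

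Genes of mitochondrial energy metabolism had small negative differences. All 30 oxidative phosphorylation genes had a negative difference, where 46.3% of all genes had a positive one. Their median was -0.25 (-0.12 between the arrays numbered 1 and -0.43 between those numbered 2), 19 of the 30 lay lower without overlap against 19.9% of all genes, and 0 were 2-fold. Sdhb, a subunit of complex II, stood at 6.74 and 7.12 with saline and at 6.46 and 6.49 with crocidolite (-0.46 ± 0.19). Cycs, encoding cytochrome c, stood at 7.23 and 7.22 against 6.87 and 6.78 (-0.40 ± 0.13). The list median was -0.07 with centring on the median, where 3 genes were positive, and -0.09 without saline replicate 2, where 9 were. Thermogenic genes had a median of -0.27 (-0.09 with centring on the median) over 12 of 17 measured, 11 of them negative, led by Cidea at 2.24 and 2.94 against 1.80 and 1.78 (-0.79 ± 0.27). Ucp1 was not well above background on both arrays of any group. The thermogenic median was -0.19 and -0.42 in the replicate pairs, and -0.06 with 5 of 12 genes positive without saline replicate 2.

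Of 22 fat synthesis genes 16 were negative and 1, Thrsp, was 2-fold lower without overlap. The median of -0.11 became 0.07 with centring on the median. Thrsp, a regulator of lipogenic enzymes, stood at 6.35 and 6.78 with saline and at 5.24 and 5.48 with crocidolite (-1.21 ± 0.36, 2.31-fold, unadjusted p = 0.0137). Fasn, the fatty acid synthase, differed by -0.38 ± 0.13, and Acacb, an acetyl-CoA carboxylase, by -0.53 ± 0.18. In the other direction Tkt had the largest positive difference of the list, 1.03, but its groups overlapped. Fatty acid oxidation genes had a median of -0.13 over 22 measured, which was 0.05 with centring on the median and 0.01 without saline replicate 2. For the adipocyte markers the median of -0.16 likewise turned to 0.02 with that centring, 0.09 without saline replicate 2 and 0.02 without crocidolite replicate 1. Pparg, the master regulator of adipocytes, stood at 6.81 and 7.28 against 7.08 and 7.13, and Slc2a4, the insulin-responsive glucose transporter, at 5.81 and 6.25 against 5.55 and 5.94. Both overlapped between the groups, and 0 of the 24 adipocyte markers was 2-fold different without overlap. In bulk RNA, fewer cells of a type and less RNA per cell cannot be told apart. Plin2, which coats lipid droplets, and Hilpda, which inhibits fat breakdown, were higher with crocidolite (0.36 ± 0.15 and 0.54 ± 0.15).

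**Figure D3:**
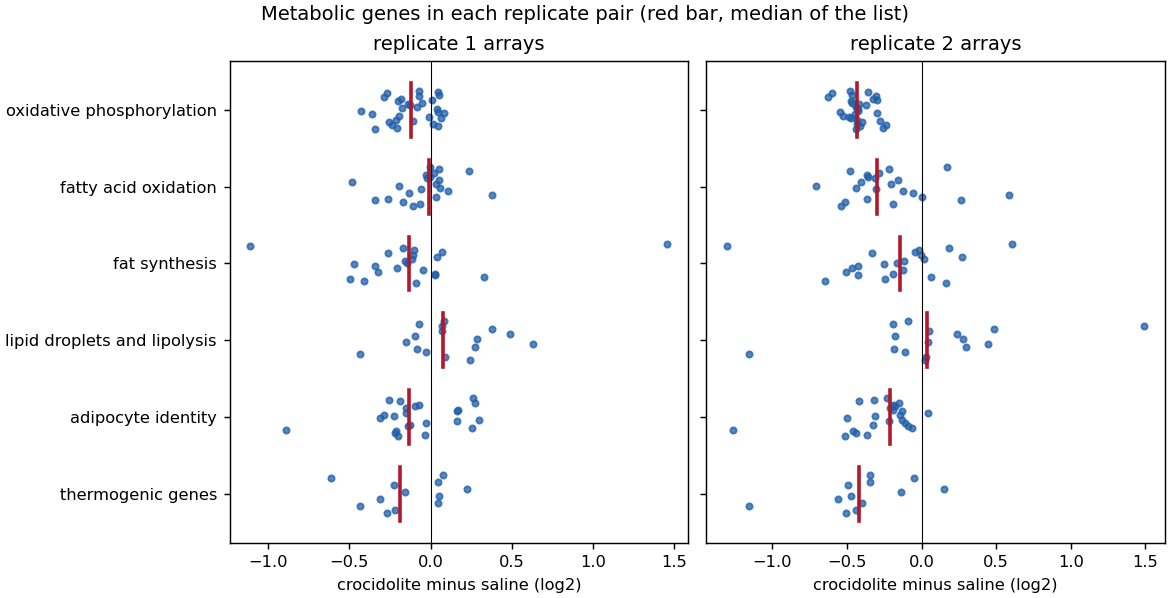
Crocidolite minus saline (log2) of each gene in 6 metabolic lists, from the arrays numbered 1 (left) and those numbered 2 (right); each point is a gene and the red bar the list median. Oxidative phosphorylation genes had medians of -0.12 and -0.43 in the pairs, and the fat synthesis, fatty acid oxidation and adipocyte lists changed the sign of their overall median with centring on the array median.

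Of 27 iron handling genes measured 18 were positive, with a median of 0.05, and 2 were 2-fold higher without overlap, Lcn2 and Steap4. Steap4, a metalloreductase, stood at -2.42 and -2.61 against -0.90 and -0.76 (1.68 ± 0.52). Tfrc, the transferrin receptor for iron uptake, stood at 1.94 and 2.42 with saline and at 1.05 and 1.54 with crocidolite (-0.88 ± 0.28, unadjusted p = 0.0188), and Aco1, the iron regulatory protein, differed by -0.53 ± 0.17. For Tfrc both crocidolite arrays lay below both saline arrays, and its 3 probes differed by -0.88 to -0.49. The ferritin genes Fth1 (-0.18 ± 0.12) and Ftl1 (-0.12 ± 0.12) differed by little more than their errors. Hmox1, which breaks down haem, stood at 0.45 and 2.63 with saline and at 1.90 and 4.34 with crocidolite (1.58 ± 1.35, with 0.97 at its second probe). Its difference was 1.45 and 1.71 in the replicate pairs, but the groups overlapped, replicate 2 being the higher array in both, and with the replicate number as a block its unadjusted p went from 0.286 to 5.28e-05. The NRF2 targets and glutathione genes, a readout of oxidative stress, had a median of 0.01 (-0.03 with quantile normalization) over 31 measured, with 16 positive and 0 that were 2-fold without overlap. It was 0.16 with 20 positive without saline replicate 2, -0.05 with 11 positive without saline replicate 1 and 0.19 with centring on the median. Nqo1 differed by 0.17 ± 0.17, Txnrd1 by 0.08 ± 0.12 and Gclm by 0.37 ± 0.13.

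Other stress lists had small positive medians. The endoplasmic reticulum chaperones had a median of 0.25 over 19 measured, with Hspa5 at 6.35 and 6.24 against 6.89 and 6.60. Integrated stress response genes had a median of 0.20 over 22, with Chac1, which degrades glutathione, at 4.66 and 4.56 against 5.32 and 5.31 (0.70 ± 0.15). Lysosome and phagosome genes had a median of 0.20 over 25, of which 22 were positive, and 0.04 with 16 positive without saline replicate 1. The integrated stress response median ran from 0.10 without crocidolite replicate 1 to 0.42 without crocidolite replicate 2, and was 0.12 without saline replicate 2 and 0.34 without saline replicate 1. In these 3 lists 0 genes were 2-fold without overlap. Among hypoxia and glycolysis genes 26 of 29 were positive (median 0.23), and the carbonic anhydrase Car9 was 2-fold higher without overlap (1.45 ± 0.59). Metallothionein Mt2 stood at 6.18 and 6.10 against 7.36 and 6.81, whereas Mt1 stood at 9.01 and 8.83 against 9.09 and 8.96, with a difference of 0.67 at its second probe. Of 25 p53 and DNA damage genes 1 was 2-fold, Plk2 (1.02 ± 0.17), a stress-induced kinase. Of 31 cell cycle genes 1 was, the replication factor Cdc6 (1.02 ± 0.21), where 0.79% of all genes were 2-fold higher without overlap. Hlf, an output gene of the circadian clock, was lower with crocidolite, at -2.49 and -2.42 against -3.31 and -3.49 (-0.94 ± 0.17).

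**Figure D4:**
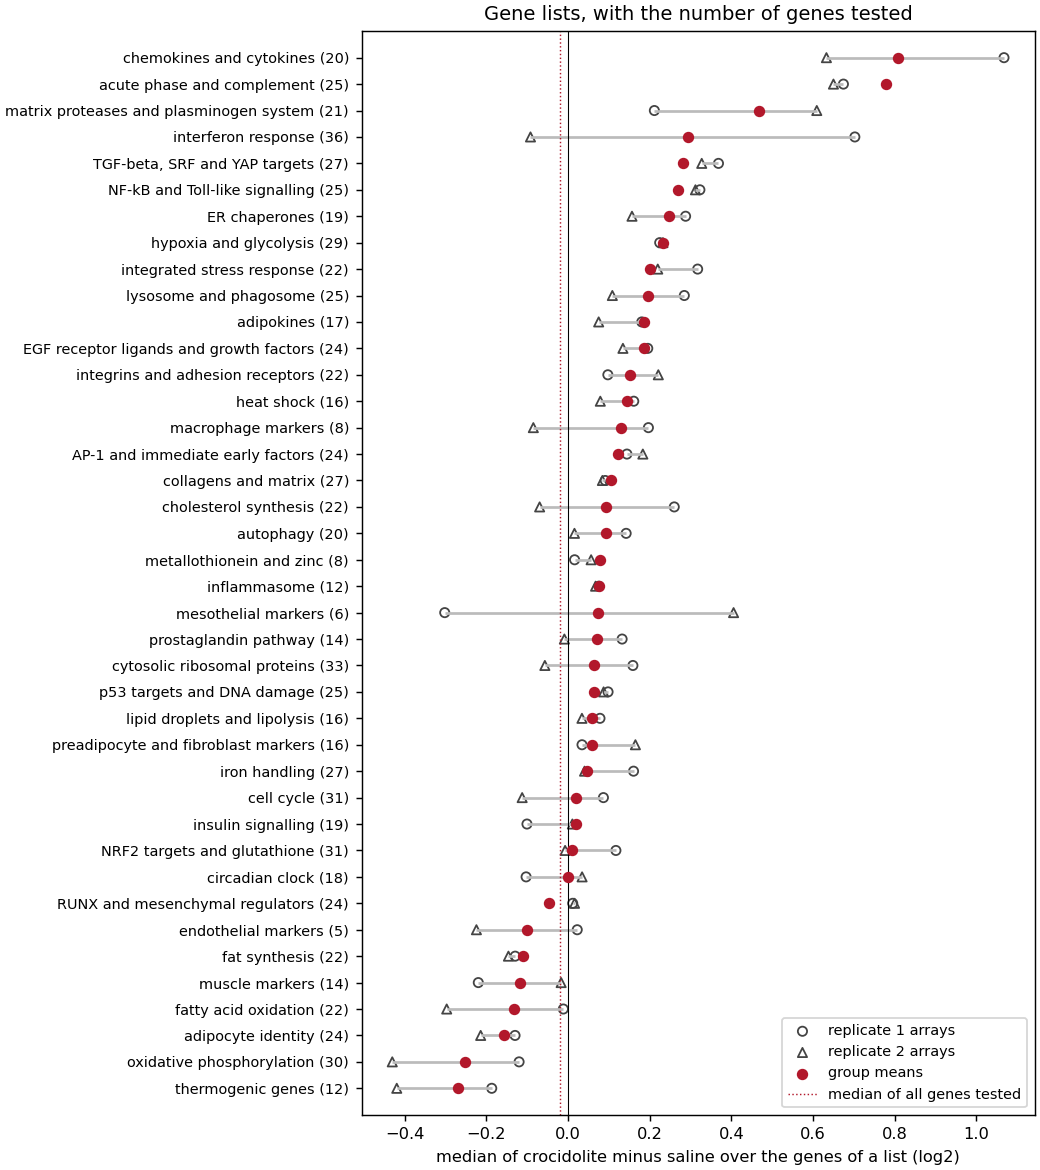
Median of crocidolite minus saline (log2) over the measured genes of each of 40 lists, with the number measured in brackets; filled points use group means, and open circles and triangles the arrays numbered 1 and 2. Chemokines and cytokines (0.81) and acute phase and complement (0.78) lie farthest right of the dotted median of all genes (-0.02), and oxidative phosphorylation (-0.25) and thermogenic genes (-0.27) farthest left.

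The largest differences outside the lists included genes not usually linked to fat. Dmkn and Sbsn are neighbouring genes of secreted skin proteins, dermokine and suprabasin. Dmkn stood at -1.54 and -1.79 with saline and at 1.56 and 1.28 with crocidolite (3.08 ± 0.69, 8.48-fold), and Sbsn at 3.10 and 3.28 against 6.03 and 6.22 (2.94 ± 0.68, 7.67-fold). Within the saline group and within the crocidolite group, the replicates of both genes lay within 0.3 log2 units of each other. Their chrysotile replicates, which also enter the pooled SE, lay farther apart, at -0.64 and 1.72 for Dmkn and at 4.09 and 6.46 for Sbsn. Slpi, which inhibits leukocyte proteases, stood at -1.48 and -1.70 against 1.26 and 1.04 (2.74 ± 0.50, unadjusted p = 0.00141). Chil1, a chitinase-like protein of inflamed tissue, stood at -2.87 and -3.19 against -0.65 and -0.33 (2.54 ± 0.74). Olr1, the receptor for oxidised low-density lipoprotein, was at least 3.13-fold higher with crocidolite. It was the brightest gene with a symbol among the 161 genes above background with crocidolite and not with saline.

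Among genes with a symbol that were above background on all 4 arrays, did not overlap and had an unadjusted p under 0.05, the 12 largest negative differences ran from -1.22 to -1.52. Clec3b, encoding tetranectin, stood at 0.51 and -0.45 with saline and at -1.17 and -1.79 with crocidolite (-1.52 ± 0.51). Cpz, a carboxypeptidase that binds Wnt proteins, stood at 0.53 and 0.57 against -1.10 and -0.66 (-1.43 ± 0.28, unadjusted p = 0.00199). Lix1 stood at -2.01 and -1.41 against -3.31 and -2.96, and the lipid transporter gene Abca9 at -2.24 and -2.81 against -4.03 and -3.86, where the difference was -0.57 with normexp. BC061237 (-1.35 ± 0.26) and Gm10375 (-1.32 ± 0.27) belong to 1 multigene family, so their probes may read the same transcripts. Among the 94 genes above background with saline and not with crocidolite, Axin2, a Wnt target that restrains that pathway, was at least 2.17-fold lower with crocidolite. Catsperb, known from sperm, was at least 2.88-fold lower, and its difference was -0.50 with normexp. The smallest adjusted p of the comparison belonged to an unnamed transcript (ENSMUST00000097982), at -2.78 and -3.16 with saline and not well above background with crocidolite, which makes it at least 3.59-fold lower.

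Markers of other cell types were checked beside the inflammatory genes. Of 21 macrophage markers 8 were measured. Adgre1, Lyz2, Mrc1, Cd163, Spi1, Tyrobp and C1qa were among the 13 not well above background on both arrays of any group, and Ptprc, which marks all leukocytes, was above background on 0 saline arrays and 1 crocidolite array. The summed level of the 8 was 66.5 and 73.2 times the 75th percentile with saline and 60.4 and 67.5 times with crocidolite, and without Itgam, whose 3 probes differed in direction, 9.02 and 8.29 against 7.08 and 7.68. The sums overlapped between the groups for the 8 and were lower with crocidolite without Itgam. Probes of Cd68 and of Csf1r, which stayed in both sums, also differed in direction. The mean log2 level of the 8 was -0.72 and -0.54 with saline and -0.55 and -0.54 with crocidolite, and 5 of the 8 had a positive difference (median 0.13, -0.03 with normexp and -0.08 without saline replicate 1). The part of such cells in the inflammatory genes was not tested. Of 20 preadipocyte and fibroblast markers 16 were measured, with summed levels of 467 and 369 against 497 and 328, and S100a4, a calcium-binding protein, was the 2-fold gene (1.06 ± 0.41, with 0.41 at a second probe). Of 12 mesothelial markers 6 were measured, with sums of 11.6 and 10.1 against 12.3 and 12.2, and Wt1, the Wilms tumour transcription factor, stood at -4.17 and -3.92 with saline and at -2.30 and -1.48 with crocidolite. That difference of 2.15 ± 0.74 was 0.89 with normexp. Muscle markers were dim. Tnnt2 stood at -2.94 and -2.93 against -2.08 and -1.56 (1.12 ± 0.21), whereas Myh6, well above background on 1 crocidolite array, stood at -3.45 and -1.46 against -4.93 and -4.52 (-2.27 ± 0.75).

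Crocidolite was also set against the other fibres, at the same labelled dose and time. No gene passed an adjusted p of 0.05 in limma against amosite (1178 at an unadjusted p under 0.05, 5.14%) or against chrysotile (632, 2.76%). These comparisons share the crocidolite arrays with the comparison against saline, so their values are given side by side and not as separate support. Against amosite, another amphibole, 154 genes were 2-fold higher without overlap (0.673%) and 175 lower (0.764%). Saa3 stood at -2.92 and -2.50 with amosite, 3.72 ± 1.01 below its crocidolite mean (unadjusted p = 0.0096). For Hp the difference from amosite was 3.37 ± 1.30, for Dmkn 3.04 ± 0.69, for Sbsn 2.84 ± 0.68, for Chil1 2.96 ± 0.74 and for C4b 2.18 ± 0.52. In each of these 6 genes both crocidolite arrays lay above both amosite arrays. The list medians against amosite were 0.63 for acute phase and complement, 0.80 for chemokines and cytokines and 0.56 for interferon response, with -0.01 over all genes.

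Against chrysotile, the serpentine fibre, 73 genes were 2-fold higher without overlap (0.319%) and 182 lower (0.795%). Several inflammatory genes differed by less than their standard errors. Dmkn (0.88 ± 0.69), Sbsn (0.85 ± 0.68) and Chil1 (0.96 ± 0.74) differed by more than theirs. Saa3 stood at -0.96 and 2.38 with chrysotile, a difference of 0.30 ± 1.01, and the chrysotile replicates enclosed the crocidolite arrays. For Ccl2 it was -0.44 ± 0.57, for Lcn2 0.10 ± 0.63, for Serpina3g 0.08 ± 0.57, for C4b 0.48 ± 0.52 and for Hp 1.16 ± 1.30. Such values do not show that the 2 fibres act alike, and the chrysotile replicates lay far apart, at 5.44 and 9.33 in Hp. The list medians against chrysotile were 0.17 for acute phase and complement and 0.05 for chemokines and cytokines. Genes 2-fold lower included Tnnt2 (-1.68 ± 0.21, unadjusted p = 0.0002) and Hmga2, a chromatin protein of embryonic cells (-1.62 ± 0.31). Both lay between saline and chrysotile, with Tnnt2 1.12 ± 0.21 and Hmga2 0.75 ± 0.31 above saline.

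**Figure D5:**
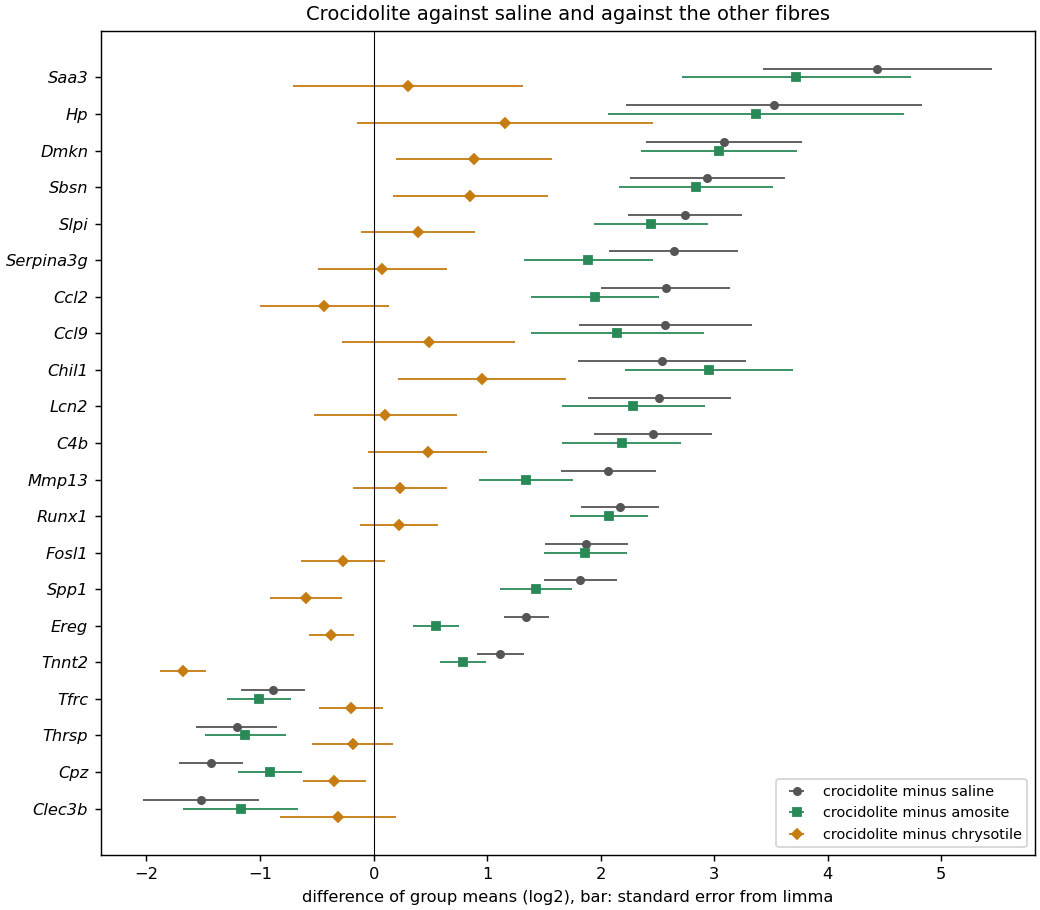
Difference of group means (log2) of 21 genes for crocidolite minus saline (circles), minus amosite (squares) and minus chrysotile (diamonds), with standard errors from limma as bars; the 3 contrasts share the crocidolite arrays. For Saa3 the differences were 4.44, 3.72 and 0.30, and Tnnt2 is the gene with the lowest value against chrysotile (-1.68).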

How the data were processed

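Cy3-labelled total RNA was read on 1-colour Agilent mouse arrays, 2 per group. Per the file headers the deposited intensity is the processed signal of each spot, background-subtracted and detrended by Feature Extraction 10.7.1.1 (10.7 per the submitters' processing notes), not scaled between arrays. The authors' value table held the same intensity (largest difference 0). Control spots and outlier spots (99 to 183 per array) were left out and no spot was saturated. Spots of a probe were averaged, 9 probes missing on an array were dropped, and log2 intensity, computed from the authors' deposited values, was centred on the array's 75th percentile. A probe was kept if well above background on both arrays of at least 1 group, and the brightest probe stood for a gene (6648 genes had more than 1). Symbols came from RefSeq accessions for 26762 probes, and 24444 of 55681 had none. Probe positions in the files are on mm9, promoters on GRCm38.p6; exon or untranslated position of probes was not analysed here.

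Groups were compared in 1 limma 3.58.1 fit of all 8 arrays (R 4.3.3, 4 residual and 2.22 prior degrees of freedom from lmFit and eBayes), two-sided, with Benjamini-Hochberg adjustment over 22899 genes. The fit was tested on simulated data. Same-numbered arrays deviated together in all 6 pairs of groups (correlations 0.254 to 0.456). They also shared a row of the slide, so paired samples and a shared row cannot be told apart. A fit with the number as a block is given where it alters a count by over 1.5 times or an unadjusted p that the text turns on. A group below background on both arrays was raised to the lowest probe value called above background on each array, which gives "at least N-fold".

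The 40 gene lists (912 genes, 803 measured, 37 in more than 1 list) and the other members were chosen with earlier results of these data known. Named genes are the 12 largest differences in each direction among genes with a symbol, above background on all 4 arrays, not overlapping and with an unadjusted p under 0.05; the 4 brightest above background in 1 group only; and up to 5 members of each list with the largest differences, plus adipocyte, macrophage, iron and NRF2 genes whose role the text needs. Other list members, neighbouring genes and genes of the fibre contrasts were named after their values were seen, and some items are not reported here. Cd29, an older name of Itgb1, was left out of the fibroblast markers. With 1 slide no slide block could be fitted.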

Additional observations from a re-analysis of the deposited data

How the results depend on the processing

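No gene passed the adjusted p for crocidolite against saline in the fit as reported, with the 2 groups alone, a trended and robust prior, normexp, no filter on dim probes, only probes bright on all 8 arrays, the mean of a gene's probes or every probe on its own. Quantile normalization gave 2 genes and centring on the median 1, and leaving out an array gave 0 to 47. With the replicate number as a block (pairing) the count stayed at 0 while genes at an unadjusted p under 0.05 went from 1675 to 3063, and the block changed no other call at the adjusted p. The 181 genes 2-fold higher became 278 with quantile normalization, 320 with median centring, 290 without a filter, 119 with probes bright on all 8 arrays and 181 to 606 when an array was left out. The 214 lower genes became 11 with normexp, 104 with quantile normalization, 126 with median centring, 2031 without a filter, 58 with bright probes, 330 with every probe on its own and 214 to 617 when an array was left out. Against chrysotile leaving out an array gave 0 to 1 genes, and against amosite 0. Among single named genes, list members, list medians and the count at an unadjusted p under 0.05, 551 alternative values counted as moved. Another 4270 did not, and 4 newly passed the threshold (Dmkn and Sbsn without either chrysotile replicate). A gene that was 2-fold without overlap counted as moved only if its sign or call changed, however far its value shifted. For other genes a shift beyond the spread between replicates was enough. The 4270 values therefore include shifts larger than that spread. As no gene passed the adjusted p as reported, no called value could change sign, but medians of lists did, as given with each list. Of the 214 lower genes 114 were not well above background on either crocidolite array.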

Other observations

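Several of the 2-fold higher genes lie next to each other. Of the 143 with a symbol and a position, 18 fell in 8 groups whose probes are within 100 kb of the next on mm9, and of 112 lower genes 2 did, in 1 group. The groups were found after the values were seen and were not tested. The share of all tested genes with such neighbours was not counted, so these counts do not show an excess of grouping. Ccl2, Ccl7 and Ccl8 lie on chromosome 11 between 81850650 and 81930167, and Ccl9 and Ccl6 (1.78 ± 0.40) at 83388223 to 83402056. Saa3, Saa4 and Saa2 lie on chromosome 7, and Saa4 stood at -4.08 and -4.30 with saline and at -3.14 and -2.05 with crocidolite. Sbsn and Dmkn lie on the same chromosome between 31540994 and 31566072.

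Groups outside the lists were also close copies or neighbours. The chloride channel accessory genes Clca3a1 and Clca3a2 on chromosome 3 differed by 1.73 ± 0.48 and 1.20 ± 0.26, and probes of such similar genes may share signal. Tmem176a and Tmem176b, a pair of membrane protein genes on chromosome 6, differed by 1.87 ± 0.49 and 1.20 ± 0.34. The lower pair was Abca8a (-1.14 ± 0.29) with Abca9, lipid transporter genes on chromosome 11. None of these genes passed an adjusted p of 0.05 in limma.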
